A study of Oryza sativa with 12 samples.

Results

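The transcripts described here are those that the deposited annotation assigns to the gene ontology terms DNA replication, mitosis or microtubule-based movement, leaving out any that also carry the term nucleosome assembly. They numbered 148 of 42081 annotated transcripts, at 121 of 34791 loci. Of these, 59 came from the replication term, 16 from the mitosis term and 73 from the microtubule term, no transcript carried 2 of the terms, and the nucleosome assembly term removed 0. RNA-Seq had been made from roots of the super-hybrid rice Xieyou 9308 (the hybrid), its father R9308 and its mother Xieqingzao B, each at tillering and again at heading. Each of the 6 groups held 2 libraries, 12 in all. Plants of every genotype were first grown in the field and then moved to nutrient solution on floating foam. For sequencing, roots were collected, but which part of the root system, and whether the same at both stages, is not stated. Such roots can hold tips, lateral roots and mature tissue together. Fewer dividing cells and less RNA per dividing cell therefore cannot be told apart in these libraries.

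Before a cell divides, the origin recognition complex marks the start sites of replication and loads the MCM helicase, which unwinds DNA together with GINS. DNA polymerases then copy the strands, replication protein A covers single strands, replication factor C loads the sliding clamp, ligase seals the fragments and ribonucleotide reductase supplies the building blocks. At mitosis condensin packs the chromosomes, the kinetochore ties them to spindle microtubules built of tubulin, and kinesins move along those microtubules and, in plants, help to build the phragmoplast that lays down the new cell wall. In roots, such divisions take place mainly in the meristems of root tips and in the primordia of lateral roots.

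By their annotation, 43 of the 148 transcripts were kinesins, 18 tubulins, 18 DNA polymerases or primases and 11 MCM proteins. A further 8 belonged to kinetochores, the spindle checkpoint or condensin, 7 to replication protein A and related OB-fold proteins, 5 to the origin recognition complex or GINS, 5 to the clamp loader, 3 were annotated as ligases and 2 as ribonucleotide reductase. Another 21, called unnamed below, had no telling name or a name outside these roles, such as Gag polyprotein. The set is therefore wider than cell division. Tubulins also serve cells that elongate, 4 transcripts encode HORMA domain or synapsis proteins of meiosis, and the 3 DIM1 or thioredoxin-like U5 proteins under the mitosis term belong to the splicing machinery. Of the 3 transcripts annotated as ligases, 2 are isoforms of a locus whose other isoforms are named replication factor C. At 23 loci 2 or more transcripts were members, and the counting had to divide the reads of such a locus between them.

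Assigned counts per library lay between 8209696 and 15830233. Every library contained a count for between 136 and 142 of the members, 123 members had a count in all 12, and 1 had none in any. RPKM values are used wherever levels are compared between transcripts, since they divide the counts by the length of the transcript as well as by the library's total, and CPM values, which leave out the length, for sums. Replicate 1 of R9308 at tillering stood apart by its light-harvesting transcripts, whose 33 members summed to 7637 CPM against 6.21 to 338 in the other 11 libraries. Replicate 2 of the hybrid at tillering stood apart by the members themselves. Of the 134 members with a mean of at least 1 RPKM, 87 were highest in that library, where 26.0% of all such transcripts were highest, and its nucleosome assembly transcripts summed to 9251 CPM against 2985 to 4980 elsewhere. Replicate 1 of Xieqingzao B at heading was the lowest library for 44 of the 134. The root markers RCc3, Lsi1 and Lsi2 were detected in all 12 libraries. The paper describes the 2 libraries of a group as biological replicates, but nothing in the labels says whether the 2 roots came from separate plots. The p-values therefore measure the spread between these libraries, which may be technical in part.

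The members' share of each library was higher at tillering than at heading in every genotype. Their summed level was 5797 and 7712 CPM for R9308, 9377 and 7181 for Xieqingzao B and 8228 and 12129 for the hybrid at tillering. At heading it was 3501 and 3010.3 for R9308, 5141 and 4450.2 for Xieqingzao B and 5406 and 5702 for the hybrid. The lowest tillering library lay above the highest heading library, and the ratio of the stage means was 1.85. Within the stages the hybrid had the highest mean and R9308 the lowest, but at tillering the libraries of the 3 genotypes overlapped, whereas at heading each genotype's pair stood clear of the next. Tubulins supplied 52.0% to 71.8% of the member counts, and a single alpha-tubulin, Os11t0247300-01, 15.7% to 30.6%. Without the 18 tubulins the summed level was 1861 to 4876 CPM at tillering and 1444 to 1763 at heading, a ratio of 1.88, and the order of the genotypes at heading was no longer separated. Replicate 2 of the hybrid at tillering, the highest library in both sums, raised both ratios. The median over members of log2(RPKM + 1) ran from 2.54 to 4.0 at tillering and from 1.91 to 2.53 at heading, while the median over all transcripts stayed between 1.36 and 1.91.

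**Figure D1:**
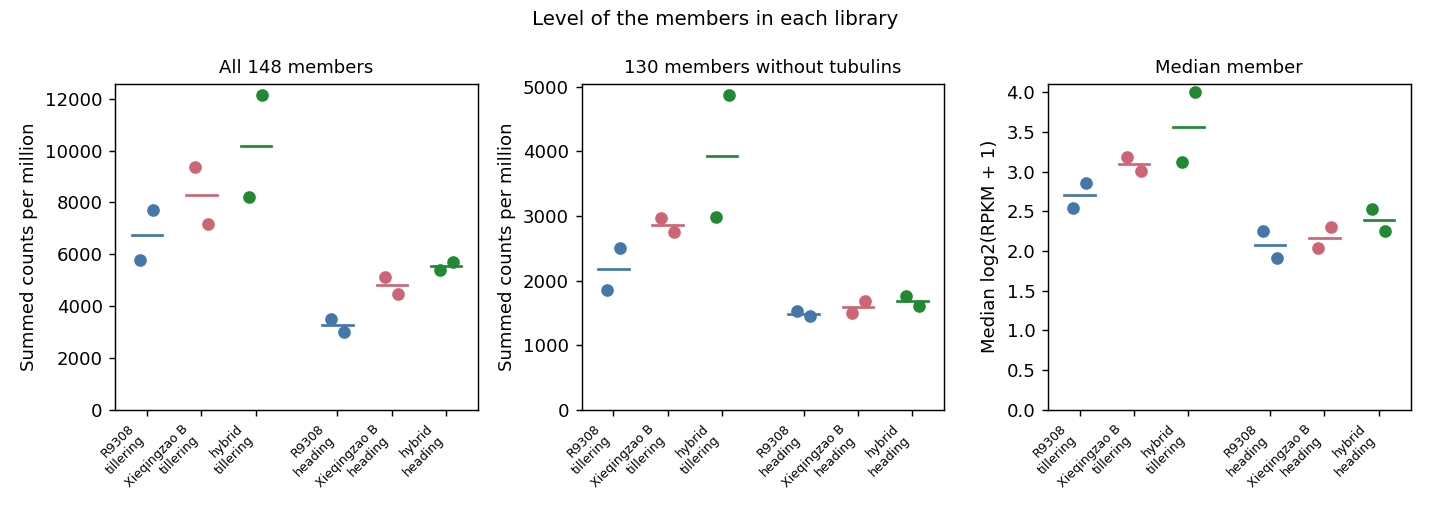
Summed level of the 148 members (left, CPM), of the 130 members that are not tubulins (middle, same unit) and the median over members of log2(RPKM + 1) (right), by genotype and stage, with a point per library and a bar at the mean of 2. The 6 tillering libraries sit above the 6 heading libraries in each panel, and replicate 2 of the hybrid at tillering is the highest.

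Heading and tillering roots were compared over the mean of the 3 genotypes. Among 143 members tested, 57 fell and 0 rose at heading, by edgeR's quasi-likelihood test with an adjusted p of at most 0.05 and at least a 2-fold change. Over all 29560 transcripts tested, 7.18% fell and 4.02% rose under the same rule, so that the share of members that fell was 39.9%. The fallen members were kinesins (24 of 42 tested), unnamed transcripts (9 of 20), tubulins (8 of 17), MCM proteins (6 of 10), kinetochore, checkpoint and condensin proteins (4 of 8), polymerases (3 of 17), origin recognition subunits (2 of 5) and a replication protein A subunit (1 of 7). By annotation, no clamp loader, ligase, ribonucleotide reductase, meiotic or DIM1 transcript was called. The log2 fold changes of the 57 lay between -4.82 and -1.03 with a median of -1.99, and 55 of the 57 had a lower mean at heading in all 3 genotypes. Replicate 2 of the hybrid at tillering was the highest library for 47 of the 57, and replicate 1 of Xieqingzao B at heading the lowest for 37. In 31 of the 143 members tested, all among the 57, the 6 heading libraries lay wholly below the 6 tillering libraries. Of all transcripts tested, 4.24% were so separated. The median log2 fold change was -0.96 over the members tested and -0.04 over all transcripts.

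DESeq2 called 64 members, where it called 15.6% of all transcripts, and with both libraries that stood apart left out 53 were called, of which 50 were among the 57. The count fell to 36 without replicate 2 of R9308 at heading, to 36 without replicate 1 of the hybrid at heading and to 30 without its replicate 2. Markers of root tissue moved with the stage as well. RCc3, a root-specific gene of rice, measured 299.9 to 972 at tillering and 6.41 to 132 at heading (RPKM). The silicon transporters Lsi1 and Lsi2 went the other way, Lsi1 with 59.6 to 196 at tillering and 413 to 934 at heading and Lsi2 with 24.9 to 79.5 at tillering and 226 to 734 at heading. The 6 transcripts of 3 cellulose synthase loci (Os01g0750300, Os09g0422500 and Os10g0467800), annotated by that name alone, summed to 83.1 to 140.1 at tillering and 8.62 to 80.0 at heading. The part of such shifts in tissue make-up in the fall of the members was not tested.

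The subunits of the replicative helicase fell together. Of 11 MCM transcripts, 6 fell. The names of the helicase subunits MCM2, MCM3, MCM4, MCM5, MCM6 and MCM7 are reached for them only by joining the annotation and the orthology column. MCM5 and MCM6 are named by the orthology column alone. That column gives MCM7 both for the transcript similar to PROLIFERA and for the one annotated as mcm4, and MCM4 for none. The summed level of the 6 was 34.8 and 52.8 RPKM for R9308, 72.8 and 69.2 for Xieqingzao B and 64.7 and 175 for the hybrid at tillering. At heading it was 22.8 and 11.9 for R9308, 3.98 and 7.95 for Xieqingzao B and 36.9 and 22.4 for the hybrid. Only replicate 1 of R9308 at tillering fell below the highest heading library, and the lowest values were those of Xieqingzao B at heading.

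MCM2 (Os11t0484300-01), the most abundant of them, ranged from 7.37 to 42.6 RPKM at tillering (median 15) and from 0.777 to 8.16 at heading (median 3.92). Its log2 fold change was -2.11 ± 0.36 (SE) with an edgeR adjusted p of 0.0104. MCM5 (Os02t0797400-01, -2.05), MCM6 (Os05t0235800-01, -2.14), MCM7 (Os12t0560700-01, -2.27) and the mcm4-annotated Os01t0544450-01 (-2.21) fell by nearly the same log2 amount. Replicate 2 of the hybrid at tillering was the highest library for all 6 called MCM transcripts.

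MCM3 was split by the counting over the isoforms of Os05g0476200. Os05t0476200-01 was listed at 0 in both Xieqingzao B libraries at heading, and Os05t0476200-02 at 0 in all 4 parental libraries at tillering but at 10.5 and 27.9 RPKM in the hybrid. The transcript values of this locus are therefore uncertain, including the -4.82 that is the lowest fold change of the set. Summed over the locus, MCM3 measured 19.8 and 32.7 CPM for R9308, 43.4 and 41.9 for Xieqingzao B and 45.7 and 123 for the hybrid at tillering. At heading the locus measured 15.4 and 8.29 for R9308, 1.81 and 8.35 for Xieqingzao B and 19.5 and 15.3 for the hybrid. The log2 fold change of the locus was -2.11 ± 0.39 (SE) with an edgeR adjusted p of 0.00684, the same size as for the other subunits.

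The other MCM family members were not called. MCM8 and MCM9 are known in other species from repair and meiosis, and the transcripts assigned to them had mean levels under 1 RPKM. Os05t0173700-01, annotated as another MCM3 homolog, measured from 1.75 to 3.54 RPKM at tillering (median 2.61) and from 1.95 to 4.58 at heading (median 3.28), with a log2 fold change of 0.31 ± 0.21 (SE) and an edgeR adjusted p of 0.336.

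Among the proteins that mark and fire origins, origin recognition complex subunit 3 (Os10t0402200-00) ranged from 1.54 to 9.78 RPKM at tillering (median 3.31) and from 0.239 to 1.54 at heading (median 0.496), a log2 fold change of -2.57 ± 0.38 (SE) (edgeR adjusted p = 0.00652). Subunit 6 (Os07t0628600-00) fell by a log2 fold change of -2.28. Subunit 2 (Os03t0184700-01), the most abundant transcript of this group, was not called and measured from 10.1 to 21.6 RPKM at tillering (median 13.1) and from 9.75 to 19.1 at heading (median 11.4), a log2 difference of -0.10 ± 0.16 (SE). The GINS subunit Psf2 was again split over isoforms, and its locus Os01g0248600 gave a log2 fold change of -0.10 ± 0.18 (SE).

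**Figure D2:**
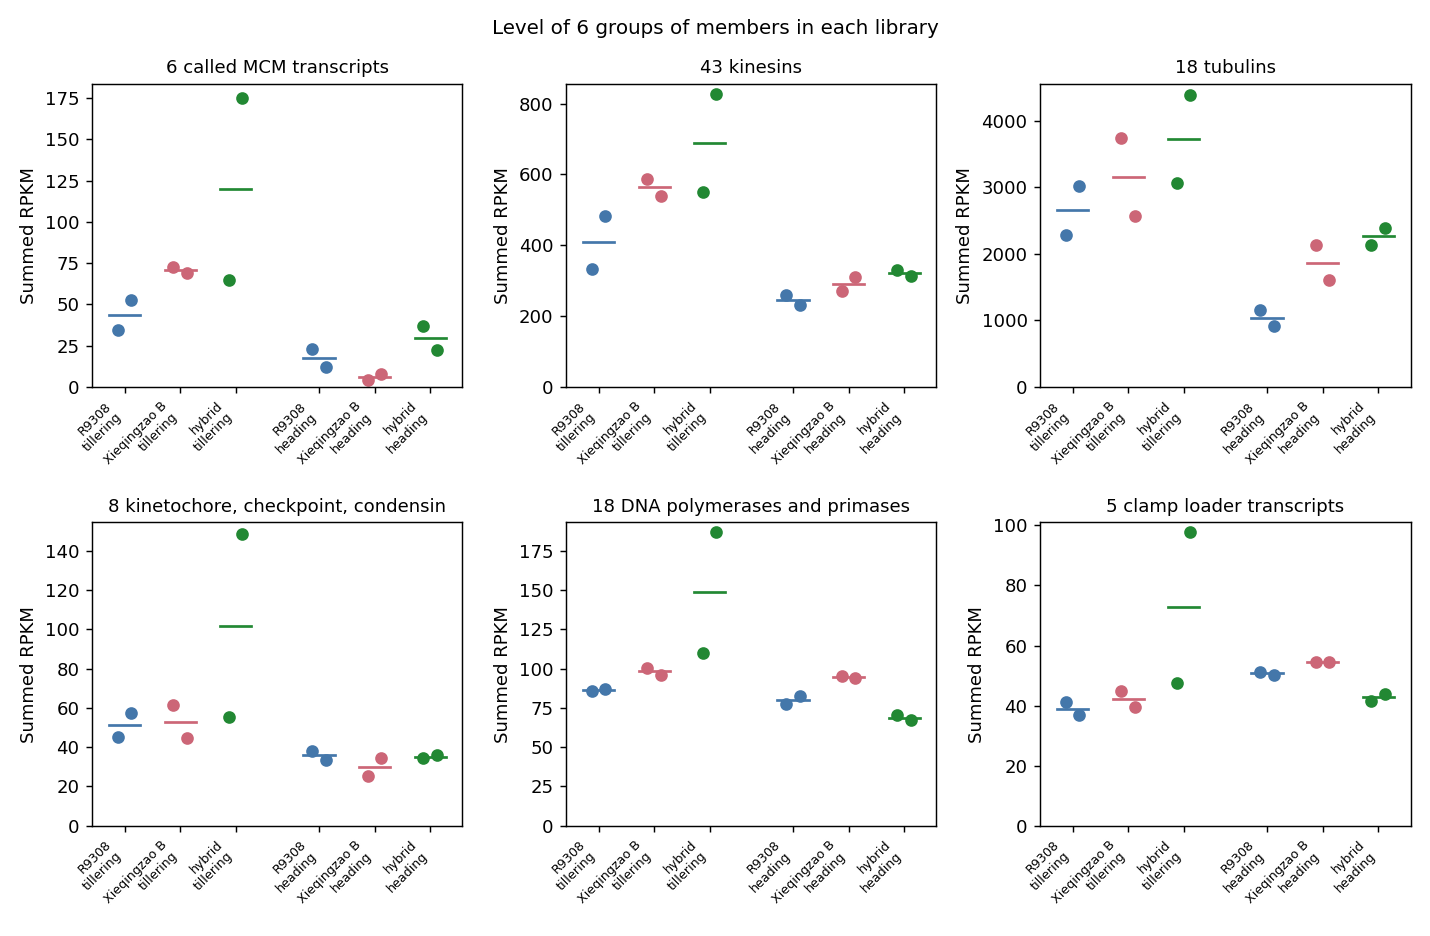
Summed RPKM of 6 groups of members by genotype and stage, with a point per library and a bar at the mean of 2. The MCM, kinesin, tubulin and kinetochore panels are higher at tillering, whereas the clamp loader transcripts measure 36.9 to 47.6 RPKM in 5 of the tillering libraries and 41.6 to 54.5 at heading, with 97.9 in replicate 2 of the hybrid at tillering.

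At the replication fork 3 polymerase transcripts fell and the other 14 tested were not called. DNA polymerase alpha, which starts each new strand, was represented by its catalytic subunit Os01t0868300-01 with 2.76 and 4.61 RPKM for R9308, 5.18 and 5.36 for Xieqingzao B and 4.59 and 5.30 for the hybrid at tillering. At heading it measured 0.930 and 0.834 for R9308, 0.596 and 0.664 for Xieqingzao B and 1.92 and 1.98 for the hybrid, so that the stages did not overlap. Its log2 fold change was -2.11 ± 0.18 (SE) with an edgeR adjusted p of 0.00279. This transcript did not share the high value of replicate 2 of the hybrid at tillering, which lay within the range of the other tillering libraries.

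The transcripts Os02t0511901-00 (-1.86) and Os02t0511900-00 (-1.60), both assigned to DNA polymerase epsilon, the leading-strand enzyme, were the other polymerases that fell. The catalytic subunit of DNA polymerase delta (Os11t0186400-00), the lagging-strand enzyme, had a log2 difference of -0.74 ± 0.21 (SE), short of 2-fold. DNA polymerase delta subunit 4 (Os09t0520100-01), the most abundant polymerase transcript, measured from 11.6 to 18.3 RPKM at tillering (median 12.8) and from 8.07 to 16 at heading (median 11.2). Its log2 difference was -0.22 ± 0.16 (SE), not past the threshold. PolI-like polymerases, which in plants serve organelles, had log2 differences of 0.21 (Os04t0637400-01), 0.05 (Os08t0175300-01) and 0.04 (Os08t0175300-02), none of them called.

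Replication protein A1 (Os03t0214100-01), a single-strand binding subunit, ranged from 4.91 to 38.3 RPKM at tillering (median 13.6) and from 0.969 to 6.87 at heading (median 2.77), a log2 fold change of -2.19 ± 0.36 (SE) (edgeR adjusted p = 0.00912). It was the only called member of the 7 transcripts grouped by annotation. No transcript annotated as clamp loader was called. Os05t0111000-01 and Os02t0704966-00, which the orthology column assigns to replication factor A1 and replication factor C, are counted as unnamed and not in these groups. Os12t0176500-01, annotated as replication factor C subunit RFC4, measured 13.5 and 10.9 RPKM for R9308, 12.3 and 12.9 for Xieqingzao B and 17.3 and 25.5 for the hybrid at tillering, and 17.6 and 17.9, 19.6 and 17.8 and 13.1 and 14.2 in the same order at heading. Its log2 difference was 0.20 ± 0.13 (SE), and the 5 clamp loader transcripts spanned -0.51 to 0.20. DNA ligase 1 (Os10t0489200-01) measured from 8.44 to 25 RPKM at tillering (median 13.2) and from 12 to 16.9 at heading (median 14.3), a log2 difference of 0.13 ± 0.16 (SE). The large subunit of ribonucleotide reductase (Os06t0168600-01) was lower at heading, from 8.89 to 29.1 RPKM at tillering (median 14.5) and from 4.67 to 11 at heading (median 7.50), with an edgeR adjusted p of 0.0117 but a log2 fold change of -0.96 ± 0.17 (SE), just short of the 2-fold that a call needed.

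Kinesins were the group with the most transcripts, and 24 of 42 tested fell, with log2 fold changes from -2.64 to -1.03 and a median of -1.85. In 14 of the 42, all among the 24, the heading libraries lay wholly below the tillering libraries, against 4.24% of all transcripts tested. Os01t0513900-01, a kinesin heavy chain, ranged from 2.96 to 23.1 RPKM at tillering (median 8.46) and from 0.410 to 2.67 at heading (median 1.27), a log2 fold change of -2.64 ± 0.38 (SE) (edgeR adjusted p = 0.00618). Os03t0114000-01, of the C-terminal motor families C2 and C3, changed by -2.64 ± 0.48 (SE), Os12t0590500-00 by -2.50 ± 0.33 (SE), Os03t0587200-01 by -2.45 ± 0.45 (SE) and Os12t0547500-01 by -2.36 ± 0.36 (SE). Calls on Os03t0114000-01 and Os03t0587200-01 were lost in 1 of 12 fits that left out a library, and those on Os01t0513900-01, Os12t0590500-00 and Os12t0547500-01 were kept in all 12.

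Kinesins with a known place in division were among those that fell. Os05t0117798-01, assigned to the kinesin-5 motor that pushes spindle poles apart (family member 11), ranged from 8.67 to 16.9 RPKM at tillering (median 12.4) and from 3.50 to 7.52 at heading (median 5.66), a log2 fold change of -1.19. Os04t0350300-00, similar to a phragmoplast-associated kinesin, changed by -2.13, and Os04t0629700-01, of the spindle motor family C1, by -1.60. NACK1 drives expansion of the phragmoplast in tobacco, and the transcript similar to it, Os08t0547500-01, had a log2 difference of -1.04 ± 0.74 (SE) and was not called. The other transcript of its locus, Os08t0547500-02, which the annotation leaves unnamed, fell by -1.07.

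The 4 most abundant kinesins were not called between the stages. Os05t0154700-01, of kinesin family 2/24, had the highest level of all 43. It measured 58.9 and 76.9 RPKM for R9308, 76.2 and 75 for Xieqingzao B and 72.6 and 98.6 for the hybrid at tillering, and 59.8 and 61.3, 67 and 65.9 and 58.4 and 66.5 at heading. The log2 difference was -0.22 ± 0.13 (SE) with an edgeR adjusted p of 0.265. Os04t0538800-01, at from 36 to 49.6 RPKM at tillering (median 42.8) and from 20.2 to 39.5 at heading (median 35.5), differed by -0.44, and Os06t0554700-01 by 0.43.

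Tubulins fell unevenly, 8 of 17 tested. Of the 8, 7 were beta-tubulins and the other was the alpha-tubulin Os11t0247300-01, the most abundant member of all. Os11t0247300-01 measured 1012 and 1334 RPKM for R9308, 1635 and 916 for Xieqingzao B and 1015 and 1860.1 for the hybrid at tillering. At heading it measured 401 and 269.9 for R9308, 770.4 and 613 for Xieqingzao B and 702 and 834 for the hybrid. Every heading library was below every tillering library, and the log2 fold change was -1.15 ± 0.25 (SE) with an edgeR adjusted p of 0.0203.

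Beta-tubulin Os05t0413200-01 ranged from 27.8 to 67.5 RPKM at tillering (median 50.1) and from 5.34 to 11.7 at heading (median 7.11), a log2 fold change of -2.58 ± 0.30 (SE). Beta-2 tubulin (Os01t0805900-01) ranged from 77.9 to 234 RPKM at tillering (median 171) and from 8.76 to 58.8 at heading (median 27.3), a log2 fold change of -2.53 ± 0.26 (SE) with an edgeR adjusted p of 0.00365. Both kept their calls in all 12 fits that left out a library. Against these, Os06t0671900-01, another beta-tubulin, measured from 121 to 199.6 RPKM at tillering (median 157) and from 109 to 209 at heading (median 139), a log2 difference of -0.08 ± 0.15 (SE). Beta-1 tubulin Os03t0780600-01 (0.45) and alpha-2 tubulin Os03t0219300-01 (0.86) had positive log2 differences that were not called. Tubulin genes are near copies of each other, and the way the counting divided their shared reads could move reads between them.

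Of the 8 kinetochore, checkpoint and condensin transcripts, 4 fell, all 4 without overlap between the stages. Of all transcripts tested, 4.24% lay lower at heading without overlap. The 4 were 2 condensin subunits (Os07t0659500-01, -2.14, and Os01t0532800-01, -1.38), the outer kinetochore protein Nuf2 (Os03t0577100-01, -2.25) and the spindle checkpoint protein MAD2 (Os04t0486500-01). MAD2, which holds back anaphase until chromosomes are attached, ranged from 3.20 to 22.8 RPKM at tillering (median 5.16) and from 0.867 to 3.04 at heading (median 1.79), a log2 fold change of -2.01 ± 0.50 (SE) (edgeR adjusted p = 0.0315). ZW10 (Os11t0545700-01), annotated as a kinetochore protein and known in other species also from vesicle traffic, was not called, at from 14.9 to 25.9 RPKM at tillering (median 16.3) and from 12.8 to 16.4 at heading (median 14). Another Nuf2 family transcript, Os08t0163100-01, was not called either, nor were the 2 transcripts of the Mis12 kinetochore locus Os02g0620100. Summed over its transcripts, that locus had a log2 difference of -0.05 ± 0.26 (SE). The 4 meiotic transcripts and the 3 DIM1 or U5 proteins gave no call. The splicing protein Os10t0486600-01 measured from 73.9 to 99.9 RPKM at tillering (median 82.9) and from 62.5 to 97.4 at heading (median 81.2). The HORMA domain transcript Os12t0606600-01 measured from 1.81 to 2.58 RPKM at tillering (median 2.36) and from 2.38 to 4.99 at heading (median 3.79). Its log2 difference was 0.69 ± 0.19 (SE). Both parents were higher at heading, but in the hybrid the stages overlapped, with 2.58 and 2.19 RPKM at tillering and 2.38 and 2.82 at heading.

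Among the 20 unnamed members tested, 9 fell. Os10t0512800-01, the most abundant, ranged from 13.5 to 28 RPKM at tillering (median 26.9) and from 4.28 to 11.1 at heading (median 7.47), and Os04t0467901-00 ranged from 2.54 to 15.3 RPKM at tillering (median 5.63) and from 0.195 to 1.98 at heading (median 0.979), with log2 fold changes of -1.76 and -2.66. The orthology column assigns 1 of the 9, Os03t0279832-00 (-1.94), to kinesin family member 11, and Os04t0588200-00 (-2.21) to an ATP-dependent helicase of DNA replication.

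**Figure D3:**
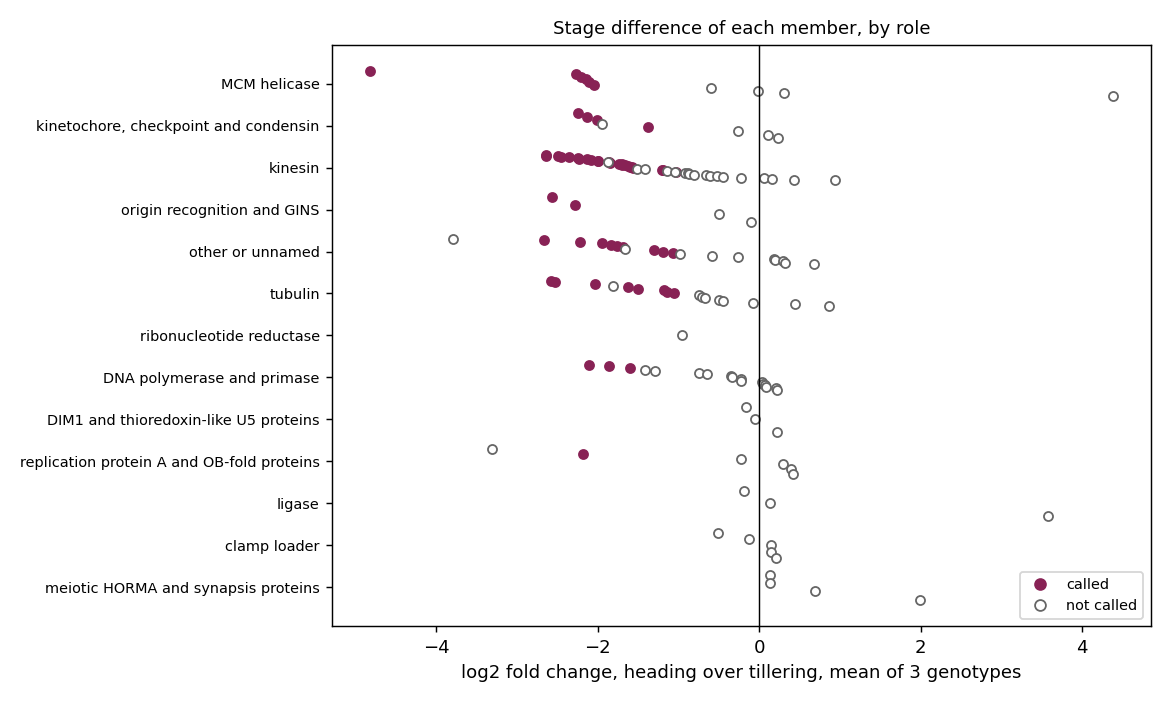
Log2 fold change of each member between heading and tillering (mean of 3 genotypes) by role, roles ordered by their median, for 139 members (4 with a standard error over 2 are not drawn). Filled points are the 57 called members, all left of 0, while clamp loader, ligase and meiotic proteins lie around or right of 0.

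Each genotype was then compared between stages on its own. In R9308 6 members fell and 0 rose, against 0.734% of all transcripts that fell. In Xieqingzao B 2 fell and 0 rose, against 0.0643%, and in the hybrid 3 fell and 0 rose, against 0.595%. At an unadjusted p under 0.05, heading was lower for 33 members of R9308, 63 of Xieqingzao B and 66 of the hybrid, which are 23.1%, 44.1% and 46.2% of 143, against 12.1%, 11.6% and 13.2% of all transcripts. The median log2 fold change over members was -0.69 for R9308, -0.98 for Xieqingzao B and -1.17 for the hybrid. The hybrid's median was -0.64 with both libraries that stood apart left out. In the fits that left out a library, the median ran from -0.998 to -0.468 for R9308. It ran from -1.091 to -0.802 for Xieqingzao B and from -1.353 to -0.5997 for the hybrid. These ranges overlapped, so the medians do not rank the genotypes by the size of the fall. With 2 libraries a group, the calls of a single genotype depended on single libraries, and leaving out any of the 6 heading libraries gave 0 calls in each genotype. The high counts came from leaving out a hybrid tillering library, with 13 in R9308 without either, 25 and 26 in Xieqingzao B without replicate 1 and 2, and 51 in the hybrid without replicate 1 but 0 without replicate 2. DESeq2 called 20, 53 and 44 in the same order, where it called 9.82%, 9.41% and 13.2% of all transcripts. A fit on the 4 libraries of a genotype gave 0 in each.

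The members called in R9308 were 3 beta-tubulins (Os05t0413200-01, Os01t0805900-01 and Os03t0661300-01), DNA polymerase alpha and 2 kinesins (Os01t0625200-01 and Os05t0117798-01). In Xieqingzao B they were DNA polymerase alpha and the MCM3 isoform that was listed at 0 at heading. In the hybrid the kinesin Os01t0625200-01 was called with Os04t0434600-00 and with Os05t0111000-01. The last is annotated as similar to a Gag polyprotein, while the orthology column assigns it to replication factor A1. DNA polymerase alpha fell by a log2 fold change of -2.0 ± 0.31 (SE) in R9308 (edgeR adjusted p = 0.0401) and of -3.11 ± 0.32 (SE) in Xieqingzao B (edgeR adjusted p = 0.0298). Os01t0625200-01 fell by -1.82 ± 0.32 (SE) in R9308 and by -1.87 ± 0.32 (SE) in the hybrid.

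Whether the stage difference itself varied with genotype was tested by interaction. No member was called between the hybrid and R9308, between the hybrid and Xieqingzao B or between the parents, where edgeR also called 0% of all transcripts in each. At an unadjusted p under 0.05, 5 members were positive and 13 negative in the comparison with R9308, 6 and 13 in that with Xieqingzao B, and 2 and 16 between the parents. Of 143 tested these are 3.50% and 9.09%, 4.20% and 9.09%, and 1.40% and 11.2%, where 9.63% and 6.15%, 8.83% and 6.34%, and 6.49% and 5.92% of all transcripts passed. DESeq2 called 7, 9 and 3 members, where it called 5.61%, 4.93% and 3.92% of all transcripts. MCM6 (Os05t0235800-01) had a log2 stage difference of -1.21 ± 0.55 (SE) for R9308, -3.28 ± 0.60 (SE) for Xieqingzao B and -1.93 ± 0.56 (SE) for the hybrid, and the interaction between the parents was -2.07 ± 0.79 (SE) with an edgeR adjusted p of 0.344. The fall of this gene in Xieqingzao B was thus not separated from that in R9308 at this depth of replication.

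A list of 155 other cell cycle transcripts (cyclins, cyclin-dependent kinases, E2F factors, cohesin and the like) was fitted in the same way. Of 126 tested, 24 fell and 0 rose over the mean of the 3 genotypes, where 7.18% of all transcripts fell and 4.02% rose. Their median log2 fold change was -0.17, with -0.04 over all transcripts. The difference in share from the members was not tested. Histones and other nucleosome assembly transcripts, which the selection leaves out, summed to 3119 to 9251 CPM at tillering and 2985 to 3784 at heading. Their stages overlapped, and the ratio of the stage means was 1.33 against 1.85 for the members. The 9251 CPM came from replicate 2 of the hybrid at tillering, which stood far above every other library and raised the 1.33. That library was also the highest for the members and raised the 1.85. Neither ratio was computed without it.

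Hybrid and parents did not differ in any called member at the tillering stage. Between the hybrid and R9308, 0 of 139 members tested were called, as were 0.0106% of all 28434 transcripts. Between the hybrid and Xieqingzao B, 0 members and 0% of all transcripts were called, and between the parents 0 members and 0.0246%. At an unadjusted p under 0.05, 36 members were higher and 1 was lower in the hybrid than in R9308, 25.9% and 0.719% of those tested against 7.58% and 9.73% of all transcripts. Against Xieqingzao B, 8 were higher and 3 lower in the hybrid, 5.76% and 2.16% against 3.86% and 4.72%. Between the parents, 4 were higher and 3 lower in Xieqingzao B, where 3.07% and 5.95% of all transcripts were. DESeq2 called 19, 5 and 5 members in these comparisons, where it called 8.82%, 2.97% and 4.41% of all transcripts. The exact test of edgeR called 4, 1 and 2 members, where it called 4.26%, 1.53% and 3.78% of all transcripts.

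The median log2 difference over members at tillering was 0.83 for the hybrid over R9308, 0.52 for the hybrid over Xieqingzao B and 0.33 for Xieqingzao B over R9308, with 0.00, 0.05 and 0.00 over all transcripts. A single library carried much of the hybrid's part. Without replicate 2 of the hybrid the medians were 0.44 over R9308 and 0.14 over Xieqingzao B, and with replicate 1 of R9308 left out as well they were 0.28 and 0.14. The median between the parents was 0.16 without replicate 1 of R9308, 0.57 without its replicate 2 and 0.17 without replicate 1 of Xieqingzao B. Within the hybrid, 108 of 134 members were higher in replicate 2 than in replicate 1, where 55.5% of all transcripts were.

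Some transcripts separated the tillering libraries by genotype without passing the adjusted threshold. Os02t0704966-00, assigned to replication factor C subunit 3/5, measured 0.635 and 0.869 RPKM for R9308, 3.52 and 3.68 for Xieqingzao B and 3.78 and 3.90 for the hybrid. The hybrid and R9308 differed by 2.29 ± 0.42 (SE) on the log2 scale, with an edgeR adjusted p of 0.158. The kinesin Os06t0554700-01 was the reverse, with 10.4 and 8.77 RPKM in the hybrid below both parents, at 25 and 26.5 in R9308 and 24.7 and 29.2 in Xieqingzao B. Its log2 difference was -1.47 ± 0.30 (SE) from R9308 (edgeR adjusted p = 0.165) and -1.50 ± 0.30 (SE) from Xieqingzao B (edgeR adjusted p = 0.334).

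At the heading stage the hybrid and Xieqingzao B differed in 12 of 138 members tested, 9 higher and 3 lower in the hybrid. These are 6.52% and 2.17% of the members, close to the 5.35% and 2.75% of all 27187 transcripts. The 9 were 3 tubulins, 2 DNA polymerases, 2 kinesins, MCM3 and ribonucleotide reductase, and the 3 were a kinesin, a PolI-like polymerase and an isoform of Psf2. The median log2 difference over members was 0.54, with -0.03 over all transcripts. It lay between 0.37 and 0.84 in the fits that left out a library, the 0.84 without replicate 2 of Xieqingzao B. The calls rested on few libraries, since 0 were called when either hybrid library was left out, 2 without replicate 1 of Xieqingzao B, 18 without its replicate 2 and 5 when either R9308 library was left out. DESeq2 called 27, where it called 14.1% of all transcripts.

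DNA polymerase alpha (Os01t0868300-01) was 1.92 and 1.98 RPKM in the hybrid and 0.596 and 0.664 in Xieqingzao B at heading, a log2 fold change of 1.76 ± 0.29 (SE) (edgeR adjusted p = 0.0280). The hybrid was above both parents in this transcript. The catalytic subunit of DNA polymerase delta (Os11t0186400-00) measured 5.04 and 4.81 RPKM in the hybrid, 2.38 and 2.32 in Xieqingzao B and 6.01 and 6.91 in R9308. Here Xieqingzao B stood alone, with a log2 fold change of 1.20 ± 0.21 (SE) for the hybrid over it and of -1.58 ± 0.21 (SE) for it over R9308, at edgeR adjusted p of 0.0303 and 0.0121. At tillering the parents were close in it, with 6.11 and 6.16 in Xieqingzao B and 5.63 and 6.44 in R9308.

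The large subunit of ribonucleotide reductase (Os06t0168600-01) measured 9.11 and 11 RPKM in the hybrid and 5.49 and 4.67 in Xieqingzao B, a log2 fold change of 1.11 ± 0.21 (SE). R9308 lay between them with 7.97 and 7.03. Beta-tubulin Os03t0661300-01 was 46.4 and 40.4 RPKM in the hybrid, 14.2 and 15.7 in Xieqingzao B and 13 and 6.36 in R9308, a log2 fold change of 1.68 ± 0.36 (SE) over Xieqingzao B. At tillering this tubulin had been at 42.4 and 32.4 in the hybrid, 39.3 and 63 in R9308 and 84.1 and 78.9 in Xieqingzao B. Its stage difference was not called as different between the hybrid and either parent, with edgeR adjusted p of 0.135 against R9308 and 0.132 against Xieqingzao B. Beta-1 tubulin Os03t0780600-01 (1.29), alpha-1 tubulin Os07t0574800-01 (1.12) and the kinesin Os04t0538800-01 (1.03) were also higher in the hybrid. Summed over its 2 transcripts, the alpha-1 tubulin locus differed less, with 397 and 458 CPM in the hybrid and 297 and 203 in Xieqingzao B. The PolI-like polymerase Os04t0637400-01 was lower in the hybrid, with 6.62 and 5.12 RPKM against 17.7 and 16.5 in Xieqingzao B.

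The calls on MCM3 and Psf2 rest on how reads were split between isoforms. Os05t0476200-01 measured 6.99 and 3.11 RPKM in the hybrid and 0 in both Xieqingzao B libraries, but the MCM3 locus gave a log2 difference of 1.93 with an edgeR adjusted p of 0.0931. Os01t0248600-01 was 0 in both hybrid libraries and 8.46 and 7.31 RPKM in Xieqingzao B, but the Psf2 locus differed by -0.51 with an edgeR adjusted p of 0.283.

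**Figure D4:**
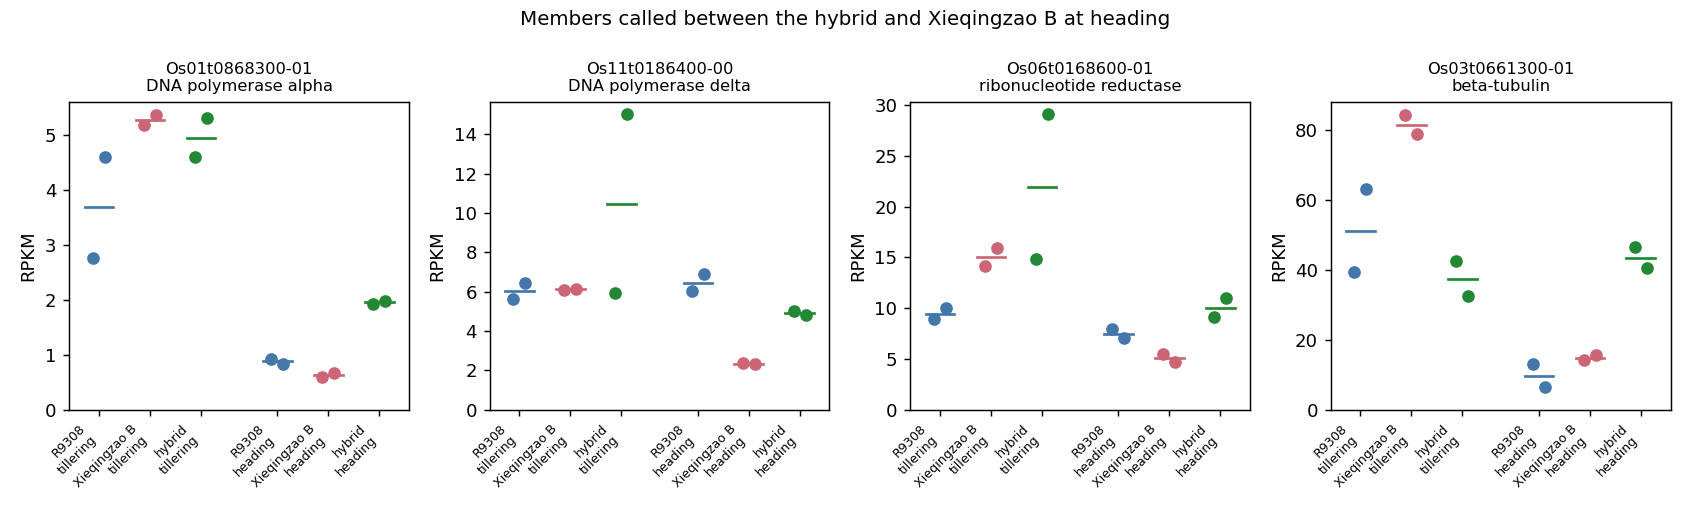
RPKM of 4 members called between the hybrid and Xieqingzao B at heading, by genotype and stage, with a point per library and a bar at the mean of 2. DNA polymerase alpha is lower at heading than at tillering in each genotype's libraries, DNA polymerase delta is at 2.38 and 2.32 in Xieqingzao B at heading, and the beta-tubulin is at 46.4 and 40.4 in the hybrid at heading.

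Between the parents at heading, 8 of 138 members differed, 4 higher and 4 lower in Xieqingzao B, 2.90% each against 4.40% and 6.36% of all transcripts. The hybrid and R9308 differed in 2, both higher in the hybrid, 1.45% against 0.714%, with 0 lower against 0.173%. At an unadjusted p under 0.05, 21 members were higher and 5 lower in the hybrid than in R9308, 15.2% and 3.62% against 8.02% and 7.72% of all transcripts, and DESeq2 called 11 members and 5.15% of all transcripts. The shares called by edgeR, below those of all transcripts or resting on 2 calls, are no result about the members. The unadjusted share of members higher in the hybrid was above that of all transcripts, and the share lower in it was below. This difference was not tested. The 2 calls were lost when any of the R9308 or hybrid libraries was left out, and 1 was lost without replicate 1 of Xieqingzao B. Between the parents the 8 became 3 without either R9308 library and 5 without either hybrid library.

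Between the parents at heading 3 kinesins kept their calls in all 6 fits that left out a library. Os11t0648100-01 was high in Xieqingzao B at both stages, with 62.2 and 63.8 RPKM at tillering and 27.5 and 26 at heading. R9308 had 6.21 and 7.71 and then 3.09 and 2.84, and the hybrid lay between its parents with 12.8 and 20.8 and then 9.48 and 10.1. No library of any genotype overlapped with another genotype's within a stage. At heading the log2 fold change of Xieqingzao B over R9308 was 3.05 ± 0.19 (SE) (edgeR adjusted p = 0.00265). The hybrid differed from R9308 by 1.73 ± 0.19 (SE) and from Xieqingzao B by -1.31 ± 0.18 (SE), both called. At tillering the parents differed by 3.14 ± 0.35 (SE), with an edgeR adjusted p of 0.0866.

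Os01t0105400-01 showed the opposite order of the parents. It measured 9.77 and 10.9 RPKM for R9308, 1.28 and 1.18 for Xieqingzao B and 5.23 and 6.07 for the hybrid at heading. Xieqingzao B was lower than R9308 by a log2 fold change of -3.19 ± 0.25 (SE) (edgeR adjusted p = 0.00387), and the hybrid was higher than Xieqingzao B by 2.32 ± 0.25 (SE). At tillering the parents stood in the same order, with 9.77 and 14 in R9308 and 2.58 and 1.86 in Xieqingzao B.

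Os04t0442800-01, similar to a phragmoplast-associated kinesin, was close to 0 in R9308 at heading, at 0.0722 and 0.0663 RPKM, against 8.14 and 13.2 in the hybrid and 14.7 and 11.4 in Xieqingzao B. R9308 had 2 counts there in all, against 447 in Xieqingzao B and 300 in the hybrid, so that a fitted fold change is not given. Per assigned count, the ratio to R9308 was 190.1 for Xieqingzao B (exact 95% interval 52.3 to 1575) and 154 for the hybrid (42.3 to 1277), intervals that cover counting error only. Both differences were called, at edgeR adjusted p of 0.00270 and 0.0142. At tillering the R9308 libraries disagreed, with 3.93 and 0.123, the higher value coming from the library rich in light-harvesting transcripts. A second transcript similar to the same kinesin, Os04t0350300-00, showed no such gap, at 4.84 and 2.04 in R9308 at heading.

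Of the other calls between the parents, alpha-1 tubulin Os03t0726100-01 was higher in Xieqingzao B, at 537 and 354 RPKM against 190.0 and 161 in R9308, a log2 fold change of 1.22 ± 0.27 (SE). Brittle culm12 (Os09t0114500-01), a kinesin-4 known in rice for its part in cell cycle and wall modification, was 10.7 and 9.67 against 4.03 and 4.89, a log2 fold change of 1.07 ± 0.21 (SE). An isoform annotated as essential for meiotic synapsis, Os09t0506800-02, was 4.74 and 6.09 in R9308 and 0.244 and 0 in Xieqingzao B. Summed over its locus it measured 18.4 and 18.8 CPM in R9308 against 0.517 and 0.767 in Xieqingzao B.

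**Figure D5:**
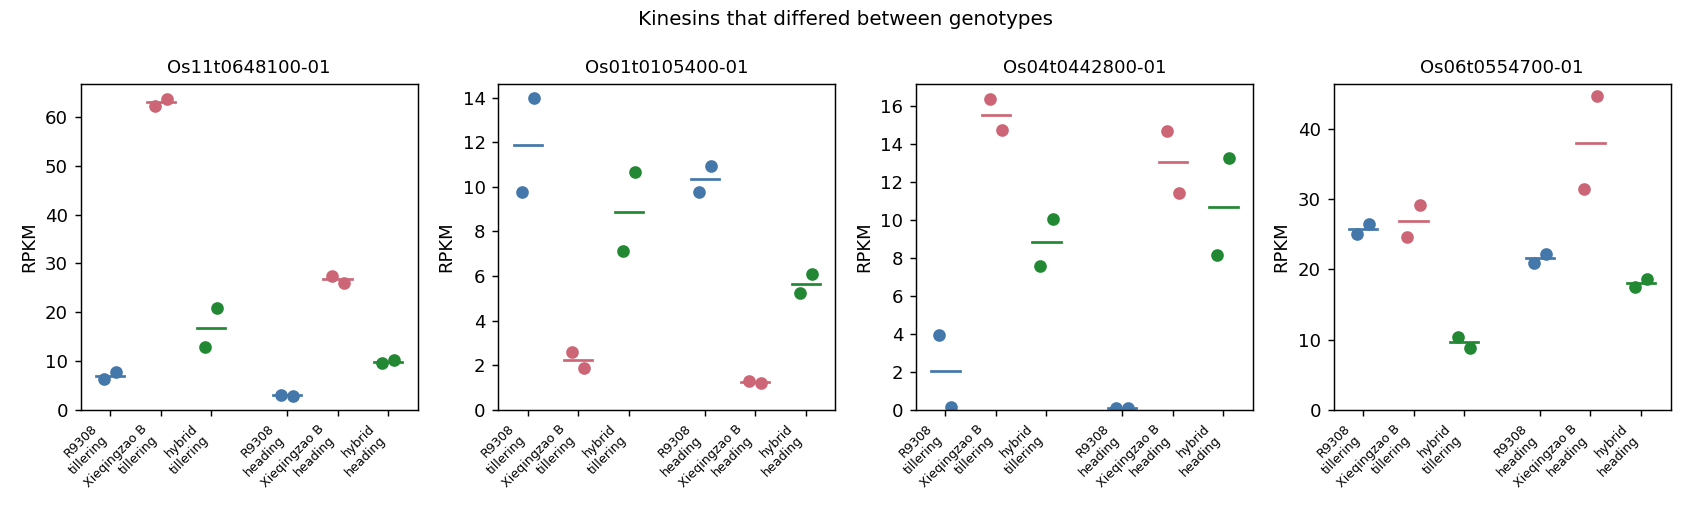
RPKM of 4 kinesins by genotype and stage, with a point per library and a bar at the mean of 2. Os11t0648100-01 is highest in Xieqingzao B at both stages, Os01t0105400-01 highest in R9308, Os04t0442800-01 close to 0 in R9308 at heading, and Os06t0554700-01 lowest in the hybrid.

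Set against both parents at once, the hybrid's mean was above the higher parent for 108 of 135 members with at least 1 RPKM at tillering (80.0%, against 40.9% of all transcripts) and below the lower parent for 10. At heading it was above both for 62 of 125 (49.6%, against 25.8%) and below both for 34 (27.2%, against 36.1%). These counts compare means of 2 libraries without a test. The tillering count includes replicate 2 of the hybrid, and the heading count replicate 1 of Xieqingzao B, the lowest library for 44 of 134 members.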

How the data were processed

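Per the labels, poly-A RNA from roots was sequenced as paired reads on an Illumina HiSeq, with base calls by CASAVA 1.8. The authors filtered the reads, used RSEM 1.1.11 with the Nipponbare genome and deposited whole counts per annotated transcript, not normalized. The deposited RPKM values of the authors equal these counts divided by transcript length and by the library's sum, as was checked on all values. The table also holds the authors' fold changes, p-values and FDR between genotypes, which were not used, and the transcript length as deposited by the authors.

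Groups follow the labelled genotype and stage, and columns were matched to libraries by the letter of the genotype and the number. The tests on counts were quasi-likelihood F-tests of edgeR 4.0.16 (with limma 3.58.1, under R 4.3.3) on transcripts kept by filterByExpr, scaled by TMM, with Benjamini-Hochberg adjustment over all transcripts tested. Genotypes were compared in a fit of the 6 libraries of a stage (28434 transcripts at tillering, 27187 at heading), and stages and interactions in a fit of all 12 (29560). Prior degrees of freedom of 2.54 to 2.61 limit what could be called. The fits were first tried on simulated counts. For levels and figures Python 3.11.15 was used (matplotlib 3.10.9, pandas 2.3.3, numpy 2.4.6).

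Named members were the called ones without overlap between libraries and with at least 1 RPKM, up to 10 by fold change in each direction (for the mean over genotypes, overlap was allowed), the 3 of smallest p where none was called, and the most abundant of each role. Others were named to complete a role, after their values were seen. Members, lists and tests were chosen with earlier results of these data known. Roles follow the wording of the annotation. Sequences of the transcripts were not used here. Alternatives were DESeq2 1.42.0, an exact test with tagwise dispersions, library size scaling, no filter, a replicate block, other sets of libraries, sums per locus and leaving out each library. Leaving out both libraries that stand apart was added after seeing the data.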

Additional observations from a re-analysis of the deposited data

How the results depend on the processing

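Over the mean of the 3 genotypes 57 members fell, and the count was 64 by DESeq2 (57 of them shared), 60 with library size scaling, 57 without the filter, 57 summed per locus and 53 without both libraries that stand apart (added after seeing the data). Leaving out each library gave 30 to 66. All other counts were small and moved with the setting. At tillering, where edgeR called 0, DESeq2 called 19 between the hybrid and R9308, 5 between the hybrid and Xieqingzao B and 5 between the parents. A fit of all 12 libraries gave 6, 1 and 3 there, the exact test 4, 1 and 2, and locus sums 1 between the parents. At heading, in the same order, the counts of 2, 12 and 8 became 11, 27 and 13 by DESeq2, 1, 5 and 5 in the fit of all 12 libraries and 11, 26 and 15 by the exact test. Locus sums gave 5 and 21 for the comparisons with the hybrid. Leaving out each library gave 0 to 3, 0 to 18 and 3 to 9. For the stage within R9308, Xieqingzao B and the hybrid, the counts of 6, 2 and 3 became 20, 53 and 44 by DESeq2, 0 in each on the genotype's own 4 libraries and 10, 35 and 0 without both libraries that stand apart. Locus sums gave 29 in Xieqingzao B and 19 in the hybrid, where library size scaling gave 8 and no filter 1. Leaving out each library gave 0 to 13, 0 to 26 and 0 to 51. The interactions, 0 by edgeR, were 7, 9 and 3 by DESeq2, and 0 to 9, 0 to 8 and 0 to 2 leaving out each library. No named log2 fold change changed sign. With 2 libraries a group and few prior degrees of freedom, a missing call says little. Where no share of all transcripts is given for a setting, its count shows only how the calls moved with that setting.

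A replicate block gave 53 members over the mean of the 3 genotypes, 0, 1 and 5 in the heading comparisons and 0 in each single-genotype stage comparison. The correlations of the deviations of same-numbered libraries lay between -0.36 and 0.04, the -0.36 between Xieqingzao B and the hybrid at tillering. None was clearly positive. With 2 libraries a group, these values cannot show whether libraries shared a batch.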

Other observations

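Replicates of a group differed in the members together. In R9308 at tillering 107 of 134 members were higher in replicate 2 than in replicate 1, where 48.9% of all transcripts were, with a median log2 difference of 0.36. In the hybrid at tillering it was 108 of 134, with a median of 0.75. In Xieqingzao B at tillering 44 of 134 were higher in replicate 2, with a median of -0.12. At heading the medians were -0.09 in the hybrid, 0.15 in Xieqingzao B and -0.19 in R9308.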
